A study of Mus musculus with 8 samples.

Results

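Collagens, laminins and the other building blocks of the basement membrane were followed in liver sinusoidal endothelial cells, the fenestrated lining of the liver's capillaries, after an acute iron load. Genes were taken by symbol, as every collagen chain (*Col*), every laminin chain (*Lam*) and *Fn1*, *Nid1*, *Nid2*, *Hspg2*, *Sparc*, *Timp1* and *Timp3*. That gave 62 of the 23930 RefSeq targets, of which 44 were collagen chains, 11 laminin chains and 7 other matrix genes. *Loxl2*, which the same rule names, was not analysed here. By role, 22 of the 62 belong to the basement membrane and 11 are fibrillar collagens, and the other 29 are placed here as other matrix genes.

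The cells came from young wild-type female Balb/c mice and were sorted by flow cytometry for low CD45 and high STAB2 and CD146. Controls had received 0.05 M citrate buffer into a vein and treated mice 150 ug of iron citrate by the same route, and cells were taken after 5 hours. There were 4 libraries in each group, from 1 mouse each as the labels name them. No further detail on the animals is given, and the p-values reflect the spread over these 8 libraries. Transcripts were read with Ion AmpliSeq, a panel that amplifies 1 short stretch per gene, so CPM (counts scaled to a library size common to all samples, here with TMM factors) does not grow with transcript length and needs no division by it. Amplicons can differ in yield, and the order of CPM between genes is therefore an order of read numbers.

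As background, a basement membrane is a thin sheet built from a laminin polymer and a type IV collagen network, which nidogens and the heparan sulphate proteoglycan perlecan link to each other. Each laminin is a trimer of an alpha, a beta and a gamma chain. Fibrillar collagens form the rope-like fibres of the interstitium and are, in liver, products mainly of stellate cells and fibroblasts. Sinusoidal endothelium is known for resting on a sparse, discontinuous matrix in place of a full basement membrane.

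**Figure D1:**
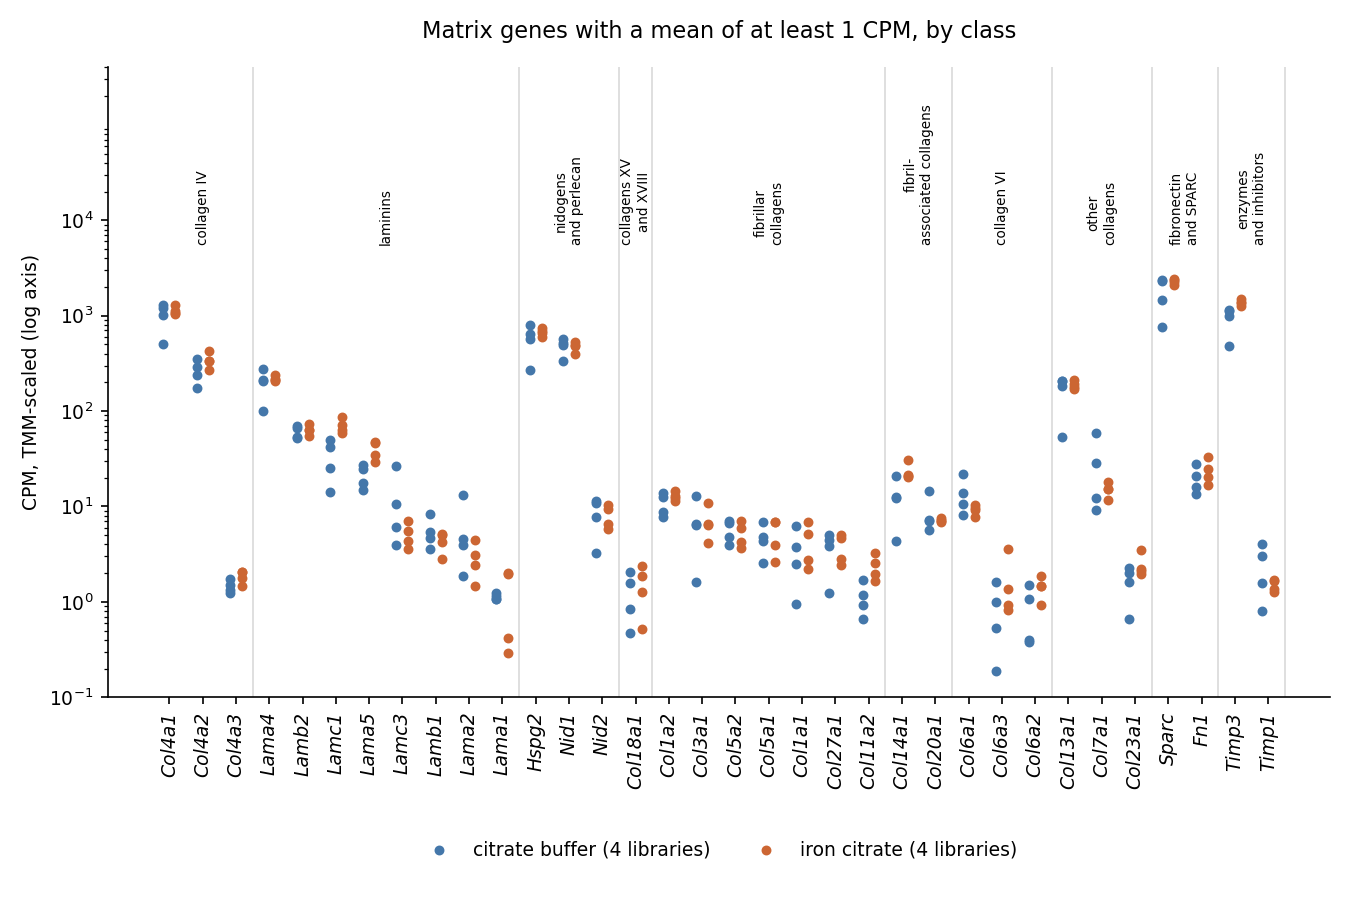
Levels of the 34 matrix genes with a mean of at least 1 CPM, each point 1 library, on a log axis of TMM-scaled CPM, ordered by class and mean. *Col4a1*, *Col4a2*, *Lama4*, *Hspg2*, *Nid1*, *Col13a1*, *Sparc* and *Timp3* have means above 100 CPM, and no fibrillar collagen exceeds 14.6 CPM in any library.

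Basement membrane genes were far more abundant in reads than fibrillar collagens. Their 22 members summed to 1529, 2665, 3060 and 3385 CPM in citrate buffer replicates 1 to 4 and to 3361, 2870, 2908 and 3005 CPM in iron citrate replicates 1 to 4. The 11 fibrillar collagens summed to 21.0, 37.4, 52.9 and 34.5 CPM with buffer and 41.8, 31.1, 52.0 and 40.4 CPM with iron. Citrate buffer replicate 1 was the lowest library in both sums, and the groups overlapped in both. The ratio of the former sum to the latter was 75.0 ± 16.8 (SD, n = 4) after buffer and 75.8 ± 15.2 after iron, and it lay between 55.9 and 98.0 in the 8 libraries.

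Over all 62 genes, 8 had a mean of at least 100 CPM and 28 a mean under 1 CPM. The 28 genes with the lowest means did not pass the low-count filter and were not tested. Among these, none exceeded a mean of 0.890 CPM, and 19 had at least 1 library without a read. *Col9a1*, a chain of cartilage collagen, had no read in any library, which allows a level of up to 0.0373 CPM over the 8 libraries together, counting error only. A library without a read for a gene allows up to between 0.265 and 0.376 CPM, depending on its depth.

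Counts on targets ran from 7969520 to 11314659 per library. The sorted cells carried their defining markers, with none of the 12 sinusoidal endothelial markers at 0. These summed to 17767, 26444, 30961 and 34214 CPM in citrate buffer replicates 1 to 4. With iron the sums ran from 28309 to 31165 CPM. Citrate buffer replicate 1 was thus the lowest library in this sum. *Clec4g* stood at 9461 ± 2000 and 10009 ± 964 CPM and *Dnase1l3* at 4655 ± 1274 and 4816 ± 723 CPM (SD, n = 4 each). One library differed from all others: citrate buffer replicate 1 had a median correlation with its own group of 0.839, against 0.962 to 0.981 for the remaining 7. The 1286 targets of 4 families that liver is not known to express (*Olfr*, *Vmn1r*, *Tas2r* and *Krtap*) took 2.42% of its counts and 0.983% of those of citrate buffer replicate 2, against 0.295% to 0.611% in the other 6. In these bulk samples, fewer cells of a type and less RNA per cell cannot be told apart.

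After iron citrate, no matrix gene passed the test. Of the 34 tested genes 0 were called higher and 0 lower by edgeR's quasi-likelihood test at an adjusted p under 0.05, where 0.527% of all tested targets were called higher and 0.0274% lower. At that background a count of 0 among 34 genes does not set the matrix genes apart. At an unadjusted edgeR p under 0.05, 5 were higher (*Lama5*, *Lamc1*, *Col11a2*, *Col14a1* and *Timp3*) and 0 lower, beside 6.57% higher and 8% lower over all tested targets. The 4 iron citrate values lay wholly above the 4 buffer values in 3 of the tested genes (*Lamc1*, *Lama5* and *Timp3*) and wholly below them in 0, beside 6.38% and 2.29% of all tested targets.

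The median log2 fold change was 0.13 over 15 tested basement membrane genes, 0.13 over 7 fibrillar collagens and 0.33 over 12 other matrix genes, against -0.01 over all 14601 tested targets. Of the 34, 24 had a positive and 10 a negative log2 fold change. Without citrate buffer replicate 1 the medians were 0.00, -0.07 and 0.13, against -0.04 over all tested targets, and without citrate buffer replicates 1 and 2 they were -0.06, -0.15 and 0.33. The positive medians of the basement membrane and fibrillar genes were thus not present once these buffer libraries were left out.

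**Figure D2:**
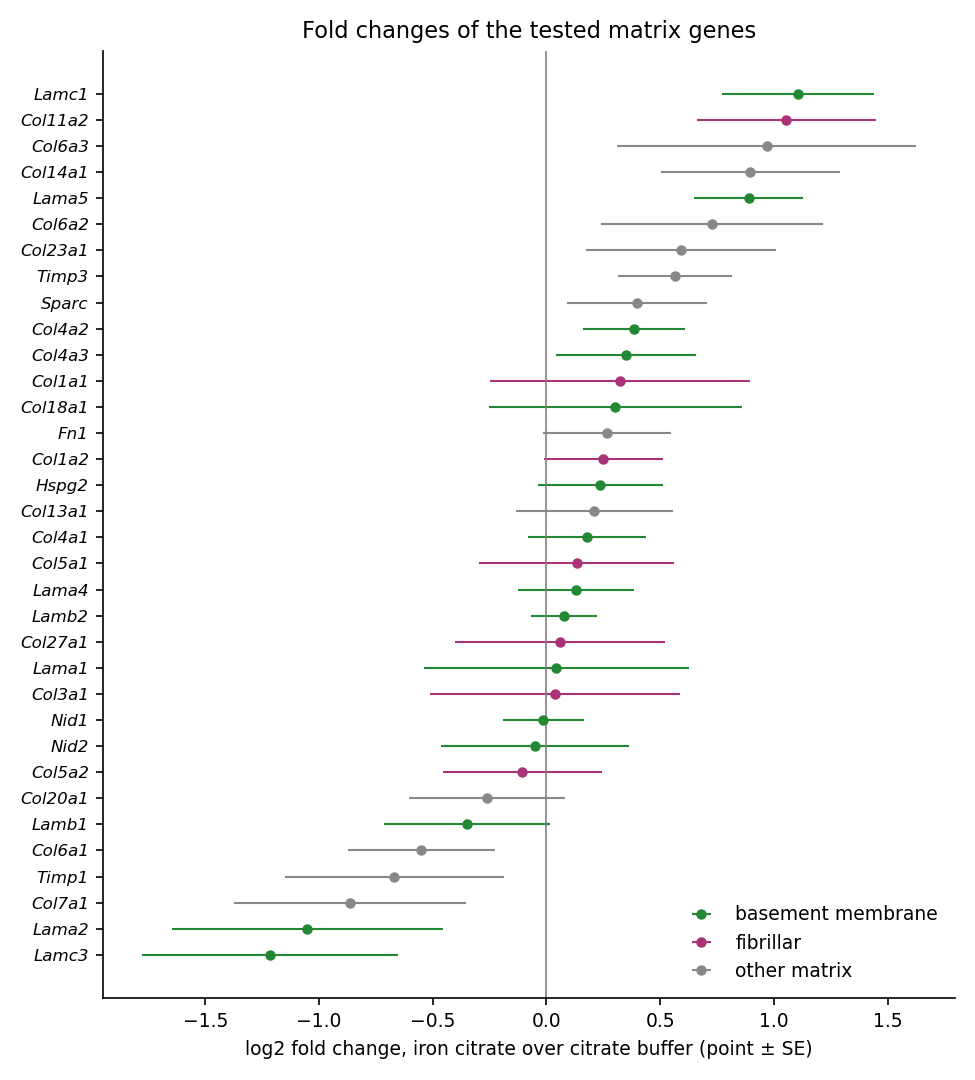
Log2 fold change of iron citrate over citrate buffer (horizontal axis, point ± SE) for the 34 tested matrix genes from edgeR, coloured by division. *Lamc1* is at the top at 1.10 and *Lamc3* at the bottom at -1.22, and none of the 34 passed at an adjusted p under 0.05.

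The study asks about the transcription factors ETS1 and NRF2, and the collagen IV genes *Col4a1* and *Col4a2* share a start region. Sequences near the starts of both genes, and of *Nid1* and *Lama5*, are shown. They come from RefSeq's promoter windows on GRCm38.p6, which held 45 of the 62 genes. *Col4a1* and *Col4a2* run head to head, and their annotated first bases overlap by 22 bases. The stretch is given on the plus strand, at chr8:11312801-11312830, with the 22 bases that lie in both transcripts in capitals and 4 bases on each side in lower case. For *Nid1* the bases from -250 to -52 before the RefSeq start are given, at chr13:13437352-13437550 on the plus strand, outside annotated exons. For *Lama5* the 250 bases before the start are given, at chr2:180225860-180226109 on the minus strand, also outside annotated exons. In the latter pair the capitals mark an ETS core (CCGGAA) or a GC box (GGGCGG), each on either strand.
Col4a1 and Col4a2: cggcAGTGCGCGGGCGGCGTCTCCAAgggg
Nid1: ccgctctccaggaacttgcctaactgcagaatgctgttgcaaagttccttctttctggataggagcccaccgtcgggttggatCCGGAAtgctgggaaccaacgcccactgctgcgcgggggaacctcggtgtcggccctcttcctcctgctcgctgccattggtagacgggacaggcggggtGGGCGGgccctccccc
Lama5: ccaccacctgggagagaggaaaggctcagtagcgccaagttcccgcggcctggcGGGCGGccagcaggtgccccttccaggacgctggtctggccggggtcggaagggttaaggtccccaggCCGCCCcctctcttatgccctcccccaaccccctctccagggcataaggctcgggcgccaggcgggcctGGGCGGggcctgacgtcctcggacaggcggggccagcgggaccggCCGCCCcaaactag

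In *Nid1* the ETS core starts at -167 and the GC box at -67. *Lama5* holds 4 GC boxes, starting at -196, -128, -59 and -14. Over the 250 bases before the start, the ETS core was present in 1 of the 45 genes (*Nid1*), against 12.2% of 27025 genes in the table. The core of the antioxidant response element, to which NRF2 binds (TGACNNNGC, both strands), was present in 6 of the 45, among them *Col4a2* and *Col7a1*, against 10.1% of all. It lies in none of the printed stretches, and the ETS core as searched here (CCGGAA) lies only in that of *Nid1*. The shorter letters GGAA, which also occur in the *Lama5* stretch, were neither searched nor marked. GC boxes were present in 27 of the 45, against 32.9% of all. The TATA box (TATAAA, both strands) was present in 5 of the 45, *Col3a1* and *Col11a2* among them, against 13.0% of all. None of these motifs contains another, and a match describes letters only.

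Type IV collagen makes the network of the basement membrane. *Col4a1*, the chain with most reads, stood at 505, 1005, 1196 and 1289 CPM in citrate buffer replicates 1 to 4 and 1289, 1060, 1053 and 1123 CPM in iron citrate replicates 1 to 4. Only citrate buffer replicate 1 was clearly low, and the groups overlapped (log2 fold change 0.18, SE 0.26, edgeR adjusted p = 0.729). *Col4a2*, its partner in the trimer, stood at 174, 236, 347 and 291 CPM with buffer and 431, 338, 335 and 267 CPM with iron. The groups overlapped here too (log2 fold change 0.39, SE 0.22, edgeR adjusted p = 0.367). Although their annotated starts overlap, *Col4a1* had 2.90 to 4.43 times the CPM of *Col4a2* in the 8 libraries, through different amplicons. Of the chains typical of kidney and other specialised membranes, *Col4a3* had a mean of 1.65 CPM over the 8 libraries, and *Col4a4*, *Col4a5* and *Col4a6* had means of 0.71, 0.20 and 0.89 CPM and were not tested.

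Laminins polymerise on the cell surface and start the sheet. The alpha chain with most reads was *Lama4*, known as an endothelial laminin chain, at 198 ± 73.1 CPM with buffer and 217 ± 14.2 CPM with iron (SD, n = 4 each). Its single values were 99.9, 210, 205 and 277 CPM with buffer and 209, 205, 237 and 215 CPM with iron. These overlapped, with a log2 fold change of 0.13 (SE 0.26, edgeR adjusted p = 0.804). The beta chain with most reads was *Lamb2*, at 51.7, 54.1, 69.3 and 66.6 CPM with buffer and 63.7, 55.4, 72.5 and 62.9 CPM with iron. Its SE was the smallest of the tested laminins, with a log2 fold change of 0.08 (SE 0.14, edgeR adjusted p = 0.80).

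Of the 34 tested genes, *Lama5* and *Lamc1* had the smallest unadjusted p in edgeR (0.00408 and 0.00804). *Lamc1*, the gamma chain of most laminins, stood at 14.1, 25.5, 49.5 and 42.0 CPM with buffer and 72.0, 59.1, 86.6 and 63.8 CPM with iron. The lowest iron value lay above the highest buffer value, and the means differed 2.15-fold (log2 fold change 1.10, SE 0.33, edgeR adjusted p = 0.302). *Lama5*, an alpha chain of larger vessels and of many epithelia, stood at 14.9, 17.6, 24.8 and 27.4 CPM with buffer and 47.2, 34.6, 46.0 and 28.9 CPM with iron. These values did not overlap either, although iron citrate replicate 4 came close to the upper buffer values (1.85-fold, log2 fold change 0.89, SE 0.24, edgeR adjusted p = 0.231). The ratio of *Lama4* to *Lama5* was 9.25 ± 2.26 after buffer and 5.74 ± 1.29 after iron (SD, n = 4 each), with overlapping values.

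Of 8 markers of continuous endothelium, the vessel type that lies on a full basement membrane, none was called. Means after iron were higher in *Vwf*, *Edn1*, *Sox17*, *Ly6a* and *Rspo3*, as in these laminin chains. They were lower in *Cd34*, *Emcn* and *Plvap* (log2 fold change -0.03, -0.03 and -0.19). *Vwf*, von Willebrand factor, stood at 4.75, 17.7, 21.1 and 30.3 CPM with buffer and 75.9, 40.7, 143 and 40.8 CPM with iron. Its groups did not overlap (4.07-fold, log2 fold change 2.03, SE 0.55, edgeR adjusted p = 0.239). *Edn1*, endothelin-1, had 7.39 ± 1.99 and 16.8 ± 6.22 CPM (SD, n = 4 each), with overlapping groups and a log2 fold change of 1.19 (SE 0.34, edgeR adjusted p = 0.264). *Sox17*, a transcription factor of arterial endothelium, had 11.4 ± 3.25 and 16.9 ± 1.00 CPM (SD, n = 4 each), without overlap (log2 fold change 0.57, SE 0.26, edgeR adjusted p = 0.333). *Vwf*, *Edn1* and *Sox17* were picked after their values were seen. Over the 8 markers of this list the median log2 fold change was 0.56. At an unadjusted edgeR p under 0.05, 3 were higher (*Vwf*, *Edn1* and *Ly6a*) and 0 lower, beside 6.57% and 8% of all tested targets. The part of such cells in the *Lama5* and *Lamc1* reads was not tested.

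Whether *Lamc1* and *Lama5* were called depended on the fit. Without citrate buffer replicate 1 *Lamc1* was called, with a log2 fold change of 0.85 (SE 0.20, edgeR adjusted p = 0.0436), and it was the only one of the 62 called, where 1.5% of all tested targets were called higher. Without citrate buffer replicates 1 and 2 its log2 fold change was 0.62 (SE 0.16, edgeR adjusted p = 0.0565). *Lama5* was called by DESeq2 in all 8 libraries (log2 fold change 0.86, SE 0.26, adjusted p = 0.0392), again as the only one of the 62, where DESeq2 called 2.02% of all tested targets higher. In the DESeq2 fit *Lamc1* had an adjusted p of 0.0783, and without citrate buffer replicate 1 *Lama5* had an edgeR adjusted p of 0.0773. Over the 17 alternatives the log2 fold change stayed positive in both, from 0.62 to 1.37 for *Lamc1* and from 0.59 to 1.04 for *Lama5*, and the adjusted p ran from 0.0436 to 0.595 and from 0.0392 to 0.595.

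**Figure D3:**
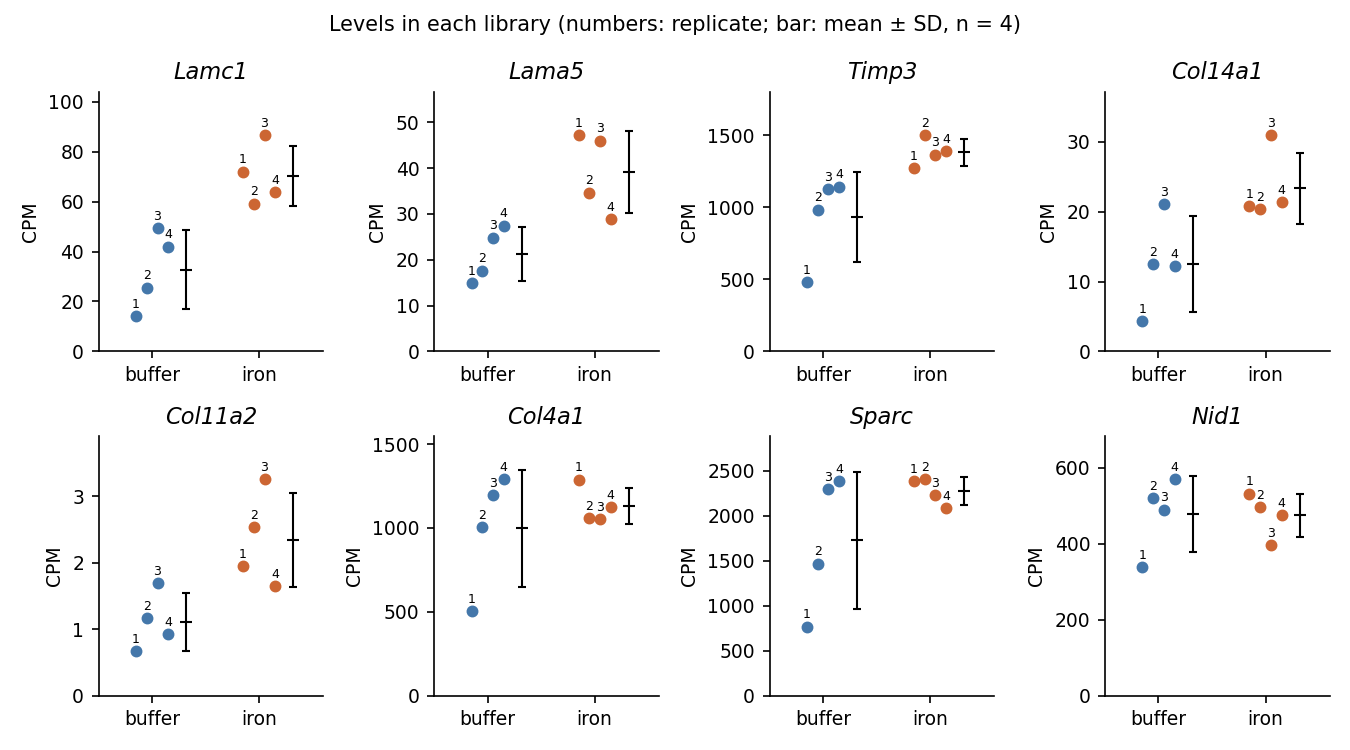
CPM in each library for 8 matrix genes (vertical axis from 0, numbers mark the replicate, bars give mean ± SD, n = 4). In *Lamc1*, *Lama5* and *Timp3* all iron citrate points lie above all buffer points, and in the other 5 the groups overlap.

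The remaining laminin chains were low. *Lamc3* and *Lama2*, which are named here because of their values, were highest in citrate buffer replicate 1, the former at 26.8, 10.5, 6.05 and 3.97 CPM with buffer and 3.61, 7.02, 4.30 and 5.51 CPM with iron. *Lama2*, the alpha chain of muscle, had 13.3 CPM in that library and 1.47 to 4.59 CPM in the other 7 libraries. Both had a negative log2 fold change (-1.22, SE 0.56, for *Lamc3* and -1.05, SE 0.59, for *Lama2*, edgeR adjusted p = 0.333 and 0.356), which was -0.44 and -0.29 without citrate buffer replicate 1. The signal on the 4 families that liver is not known to express was highest in the same library, and its part in these values was not tested. *Lama3* and *Lamb3*, chains of epithelial laminins, had means of 0.347 and 0.0561 CPM and were not tested.

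Nidogens and perlecan bridge the laminin and collagen layers. Perlecan, *Hspg2*, stood at 272, 563, 645 and 796 CPM with buffer and 691, 594, 657 and 739 CPM with iron, with citrate buffer replicate 1 lowest and the groups overlapping (log2 fold change 0.24, SE 0.28, edgeR adjusted p = 0.661). *Nid1* stood at 338, 520, 489 and 569 CPM with buffer and 531, 496, 396 and 475 CPM with iron. Its means were 479 ± 99.7 and 475 ± 57.1 CPM (SD, n = 4 each), with a log2 fold change of -0.01 (SE 0.18, edgeR adjusted p = 0.976). *Nid2*, the second nidogen, had 8.38 ± 3.80 and 8.07 ± 2.22 CPM. *Nid1* had 42.0 to 105 times the CPM of *Nid2* in single libraries.

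Collagens XV and XVIII, whose C-terminal fragments include endostatin, were near the floor. *Col18a1* stood at 0.475, 0.834, 2.05 and 1.59 CPM with buffer and 1.85, 1.27, 0.525 and 2.39 CPM with iron (log2 fold change 0.30, SE 0.55, edgeR adjusted p = 0.792). *Col15a1* had 20 reads in the 8 libraries together and none in 2 of them.

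Fibrillar collagens were low in every library, and none was called. Reads also fell on the 1286 targets of families that liver is not known to express (0.295% to 2.42% of counts). The part of such signal in these low levels was not tested, nor was its part in the ratio of basement membrane to fibrillar sums. *Col1a2*, a chain of type I collagen, stood at 8.74, 12.6, 14 and 7.68 CPM with buffer and 12.2, 11.5, 12.9 and 14.6 CPM with iron (log2 fold change 0.25, SE 0.26, edgeR adjusted p = 0.619). *Col3a1*, the chain of reticular fibres, stood at 1.61, 6.34, 12.7 and 6.62 CPM with buffer and 6.54, 4.14, 10.9 and 6.42 CPM with iron. It varied more within the groups than between them (log2 fold change 0.04, SE 0.55, edgeR adjusted p = 0.978). *Col1a1* had means of 3.38 ± 2.27 and 4.25 ± 2.20 CPM, and *Col5a1*, *Col5a2* and *Col27a1* had means of 3.70 to 5.43 CPM over the 8 libraries. *Col11a2*, a minor fibrillar chain, stood at 0.665, 1.17, 1.69 and 0.927 CPM with buffer and 1.95, 2.53, 3.25 and 1.65 CPM with iron. Its groups overlapped only through iron citrate replicate 4, and it rested on 138 reads in all (log2 fold change 1.05, SE 0.39, edgeR adjusted p = 0.333). *Col2a1*, *Col5a3*, *Col11a1* and *Col24a1* were not tested, with 1 to 24 reads each over the 8 libraries.

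Reads on markers of stellate cells and fibroblasts were found beside the fibrillar collagens, at widely differing levels. The 14 markers summed to 311, 552, 759 and 425 CPM in citrate buffer replicates 1 to 4 and 502, 684, 781 and 689 CPM in iron citrate replicates 1 to 4. The proteoglycan *Dcn* led them, at 292 ± 125 and 382 ± 69.6 CPM, followed by *Rgs5* at 66.2 ± 11.6 and 81.5 ± 26.1 CPM (SD, n = 4 each). Over the 8 libraries, *Lrat*, *Reln* and *Colec11* had means of 37.2 to 59.9 CPM, *Cygb* 14.7 CPM and *Des* 8.45 CPM. *Pdgfra*, *Pdgfrb*, *Lum*, *Acta2* and *Ngfr* had means of only 1.15 to 3.68 CPM, *Hand2* 0.622 CPM and *Pdpn* 0.0955 CPM. Of the 14, 12 were tested, none was called and none was at 0 in all libraries. In both the marker sum and the fibrillar sum, citrate buffer replicate 1 was the lowest and replicate 3 the highest library of the buffer group. Iron citrate replicate 3 was the highest of its group in both. The lowest iron library was replicate 1 in the marker sum (502 CPM) and replicate 2 in the fibrillar sum (31.1 CPM). Citrate buffer replicate 1 was also the lowest buffer library in 15 of the 21 matrix genes with a mean of at least 5 CPM. No such count was made over all targets. The same library was lowest of the buffer group in the sums of sinusoidal, hepatocyte, Kupffer cell and continuous endothelial markers (17767, 455, 43.2 and 708 CPM). In the sum of cholangiocyte and mesothelial markers it was the highest (128 CPM). The part of stellate cells and fibroblasts in the fibrillar reads was not tested.

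Among the fibril-associated collagens, *Col14a1*, which coats the surface of fibrils, stood at 4.37, 12.5, 21.1 and 12.2 CPM with buffer and 20.8, 20.4, 31.0 and 21.4 CPM with iron. The groups overlapped only through citrate buffer replicate 3 (1.86-fold, log2 fold change 0.90, SE 0.39, edgeR adjusted p = 0.333), and the log2 fold change was 0.61 without citrate buffer replicate 1 (edgeR adjusted p = 0.238). *Col20a1* reached 14.6 CPM in citrate buffer replicate 1 and 5.69 to 7.62 CPM in the other 7 libraries (edgeR adjusted p = 0.697). The other 7 members of the class had means under 1 CPM.

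Collagen VI forms beaded filaments around cells. Its chain *Col6a1* stood at 21.6, 13.8, 10.5 and 8.07 CPM with buffer and 9.66, 7.71, 9.23 and 10.4 CPM with iron, with citrate buffer replicates 1 and 2 highest (log2 fold change -0.55, SE 0.32, edgeR adjusted p = 0.369). *Col6a3* had 0.830 ± 0.612 and 1.67 ± 1.29 CPM (SD, n = 4 each), and its highest library was iron citrate replicate 3 at 3.57 CPM (log2 fold change 0.97, SE 0.66, edgeR adjusted p = 0.423). Without that library the log2 fold change was 0.30 (SE 0.63, edgeR adjusted p = 0.868).

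The collagen with most reads outside type IV was *Col13a1*, a collagen that spans the cell membrane. It stood at 54.1, 183, 208 and 208 CPM with buffer and 181, 192, 214 and 170 CPM with iron (log2 fold change 0.21, SE 0.35, edgeR adjusted p = 0.766). All libraries but citrate buffer replicate 1 lay between 170 and 214 CPM. *Col7a1*, the anchoring fibril collagen of skin, stood at 59.1, 28.6, 12.2 and 9.13 CPM with buffer and 18, 15.1, 11.6 and 15.3 CPM with iron. Its log2 fold change of -0.86 (SE 0.51, edgeR adjusted p = 0.371) turned to 0.48 without citrate buffer replicates 1 and 2 (edgeR adjusted p = 0.379). In those replicates the signal on families that liver is not known to express was also highest (2.42% and 0.983% of counts). The part of that signal in the *Col7a1*, *Col6a1* and *Col20a1* reads was not tested.

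SPARC binds collagen and calcium, and *Sparc* had the most reads of all 62 genes. It stood at 767, 1469, 2297 and 2382 CPM with buffer and 2388, 2403, 2232 and 2082 CPM with iron. Citrate buffer replicates 1 and 2 were low and the other 6 libraries alike (log2 fold change 0.40, SE 0.31, edgeR adjusted p = 0.486), and without those replicates the log2 fold change was -0.04. Fibronectin, *Fn1*, stood at 13.4, 20.8, 28.2 and 16.1 CPM with buffer and 32.9, 20.1, 16.8 and 24.8 CPM with iron (log2 fold change 0.27, SE 0.28, edgeR adjusted p = 0.622). Hepatocytes are a main source of fibronectin, and the 9 hepatocyte markers measured summed to 455 to 944 CPM with buffer and 384 to 828 CPM with iron, with *Alb* at 457 ± 152 and 319 ± 107 CPM and *Ahsg* at 67.7 ± 24.6 and 64.4 ± 27.6 CPM (SD, n = 4 each). Their part in the *Fn1* reads was not tested.

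Tissue inhibitors of metalloproteases limit how fast matrix is cleared. *Timp3*, which stays bound to the matrix, had the second most reads of the 62 genes, at 480, 984, 1127 and 1144 CPM with buffer and 1271, 1501, 1365 and 1390 CPM with iron. All iron values lay above all buffer values (1.48-fold, log2 fold change 0.57, SE 0.25, edgeR adjusted p = 0.333). Without citrate buffer replicate 1 its log2 fold change was 0.35 (SE 0.12, edgeR adjusted p = 0.219). *Timp1*, a soluble inhibitor, stood at 4.08, 3.00, 0.801 and 1.59 CPM with buffer and 1.37, 1.27, 1.68 and 1.65 CPM with iron (log2 fold change -0.67, SE 0.48, edgeR adjusted p = 0.450).

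**Figure D4:**
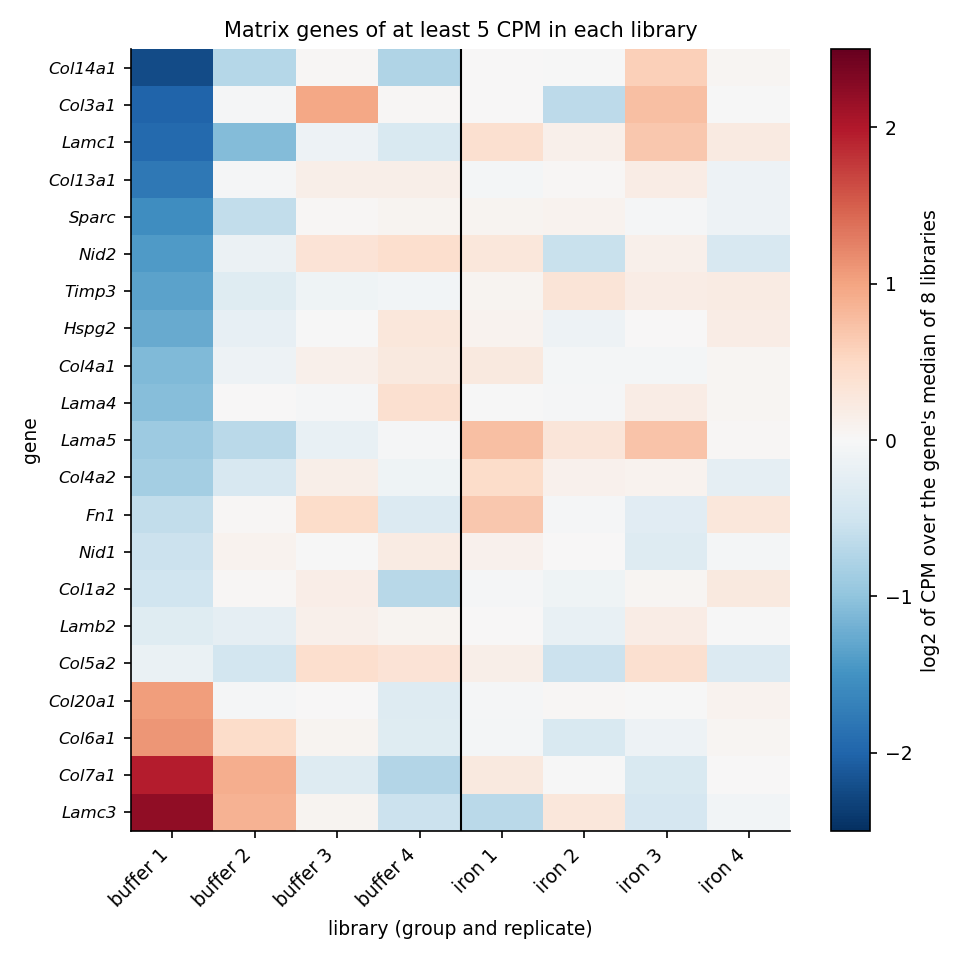
Heat map of log2 CPM relative to each gene's median over the 8 libraries for the 21 matrix genes with a mean of at least 5 CPM (rows, ordered by citrate buffer replicate 1; columns, libraries). Citrate buffer replicate 1 is the lowest buffer library in 15 of the 21 and the highest in 4, with no count made over all targets. Citrate buffer replicate 2 has a paler colour in the same direction for *Sparc*, *Lamc1*, *Lama5*, *Col14a1*, *Col7a1* and *Lamc3*.

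Citrate buffer replicate 1 set much of the spread of the buffer group. Among the 21 genes with a mean of at least 5 CPM it was the lowest buffer library in 15 and the highest in 4, which were *Lamc3*, *Col7a1*, *Col6a1* and *Col20a1*. These counts were not made over all targets, and they do not set the matrix genes apart. Without it the mean sum over the basement membrane genes after buffer was 3037 CPM, against 3036 CPM with iron. Without it the buffer sum of the fibrillar collagens was 41.6 CPM, against 41.3 CPM with iron. The other matrix genes still summed lower after buffer without it, at 3414 CPM against 3936 CPM with iron. Over all 62 genes the sums were 6492 and 7014 CPM.

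Genes that build, modify and clear the matrix were examined beside its structural genes, in 4 lists, and none of their members was called by edgeR in all 8 libraries. Of 34 genes of collagen modification and cross-linking 27 were tested, with 0 called and a median log2 fold change of 0.13. The prolyl and lysyl hydroxylases in this list use iron as a cofactor. *Plod1*, a lysyl hydroxylase, stood at 379 ± 161 and 428 ± 26.8 CPM, *P4hb*, a subunit of prolyl 4-hydroxylase, at 271 ± 65.5 and 290 ± 30.2 CPM, and the collagen-folding cyclophilin *Ppib* at 249 ± 37.9 and 267 ± 38.9 CPM (SD, n = 4 each, edgeR adjusted p = 0.765, 0.796 and 0.758). At an unadjusted edgeR p under 0.05, 3 of the 27 were higher and 0 lower, beside 6.57% and 8% of all tested targets.

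Of 23 other basement membrane genes 14 were tested, with 0 called, 0 higher and 0 lower at an unadjusted edgeR p under 0.05, and a median log2 fold change of 0.26. Over all tested targets, 6.57% were higher and 8% lower at that unadjusted threshold. Netrin-4, *Ntn4*, which binds laminin, stood at 555 ± 220 and 587 ± 98.3 CPM, *Tinagl1* at 517 ± 219 and 793 ± 67.9 CPM and *Ecm1* at 253 ± 123 and 359 ± 46.1 CPM (SD, n = 4 each, edgeR adjusted p = 0.899, 0.333 and 0.428). For *Tinagl1* the 4 iron values, from 729 CPM, lay above the 4 buffer values, up to 714 CPM. *Fbln2*, a fibulin outside the naming rule, was called only without citrate buffer replicates 1 and 2, with a log2 fold change of 1.09 (SE 0.22, edgeR adjusted p = 0.0129).

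Of 20 genes of fibroblast-type matrix 13 were tested, with 0 called and a median of 0.31. At an unadjusted edgeR p under 0.05, 1 was higher (*Bgn*) and 0 lower, beside 6.57% and 8% of all tested targets. *Ltbp4*, which holds latent TGF-beta in the matrix, stood at 1415 ± 738 and 1848 ± 203 CPM and the proteoglycan *Bgn* at 535 ± 55.7 and 689 ± 125 CPM (SD, n = 4 each, edgeR adjusted p = 0.628 and 0.333). For *Bgn* the 4 iron values, from 584 CPM, lay above the 4 buffer values, up to 571 CPM. Of 32 genes of matrix turnover 23 were tested, with 0 called and a median of 0.25. At an unadjusted edgeR p under 0.05, 4 were higher and 2 lower, beside the same 6.57% and 8% of all tested targets. The cathepsins *Ctsl* and *Ctsb* stood at 2744 ± 769 and 3265 ± 469 CPM and at 1502 ± 632 and 1947 ± 219 CPM, and the membrane-bound metalloprotease *Mmp14* at 366 ± 124 and 444 ± 24.2 CPM (SD, n = 4 each, edgeR adjusted p = 0.543, 0.516 and 0.549). *Adamts9*, a protease of proteoglycans outside the naming rule, was called by DESeq2 alone, with a log2 fold change of 1.14 (adjusted p = 0.0467, and 0.271 by edgeR).

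Markers of further cell types gave no called gene. The 8 Kupffer cell markers summed to 43.2 to 276 CPM with buffer and 167 to 485 CPM with iron, with *Vsig4* at 83.9 ± 41.6 and 139 ± 61.4 CPM and *Clec4f* at 37.1 ± 22.7 and 57.6 ± 28.5 CPM. The 8 markers of continuous endothelium summed to 708 to 1280 CPM and 881 to 1220 CPM. *Plvap*, at 595 ± 188 and 522 ± 74.6 CPM, and *Emcn*, at 285 ± 53.0 and 280 ± 27.7 CPM, made up most of that sum and had lower means after iron, while *Vwf*, *Edn1* and *Sox17* had higher ones. The 8 markers of cholangiocytes and mesothelium summed to 68.0 to 128 CPM and 98.7 to 130 CPM, with *Spp1* at 55.8 ± 29.5 and 83.8 ± 10.3 CPM and *Msln* at 31.4 ± 21.9 and 16.4 ± 3.98 CPM (SD, n = 4 each). None of these markers was at 0 in all libraries, but some were near the floor. *Krt7*, *Upk3b*, *Wt1* and the Kupffer cell marker *C1qa* had means of 0.342, 0.133, 0.0549 and 0.0363 CPM over the 8 libraries. *Msln* stood at 62.6, 31.0, 16.4 and 15.8 CPM in citrate buffer replicates 1 to 4. The part of signal such as that on families that liver is not known to express was not tested. Nor was the part of these cells in the matrix reads.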

How the data were processed

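The authors deposited raw read counts per RefSeq target for each library. The submitters' processing notes name HTSeq 0.6.0 and DESeq2 1.18.1, and for the aligner and genome build nothing is given in the sources used here. Summary lines that name no target (2.15% to 4.60% of all reads) were left out. RefSeq accessions were matched to symbols with the reference tables: 18124 by versioned and 4324 by unversioned accession, 114 through GENCODE, and 1368 without a match. *Loxl2* was not analysed here. The design text speaks of 5 against 5 samples, and 4 against 4 were analysed. Replicates differed beyond sampling noise.

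All targets were fitted with edgeR 4.0.16 in R 4.3.3 (filterByExpr, TMM, robust quasi-likelihood F-test, Benjamini-Hochberg over 14601 tested targets) and called at an adjusted p under 0.05. Scripts were tested on simulated data. DESeq2 1.42.0, limma-voom 3.58.1 with sample weights, other scaling factors and low-count filters, a block and left-out libraries were alternatives. The members and gene lists were chosen with earlier results of these data known. Named were every called member, the 12 members with the highest mean CPM, the top 2 of each class, and tested members with separate groups or an unadjusted p under 0.05. Of each matrix list the top 3 genes by mean CPM were named and of each marker list the top 2. Replicate numbers come from the labels and did not pair the samples.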

Additional observations from a re-analysis of the deposited data

Results flagged for a closer look

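In 3 of 46 groups of 4 libraries, over 23 named genes, 1 library lay far from the other 3 by Dixon's gap ratio, where chance flags about 1 in 20 groups. *Col14a1*, a collagen of fibril surfaces, stood at 31.0 CPM in iron citrate replicate 3 and at 20.4 to 21.4 CPM in the other iron citrate libraries. *Col20a1*, another fibril-associated collagen, had 14.6 CPM in citrate buffer replicate 1 and 5.69 to 7.21 CPM in the other buffer libraries. *Col13a1*, the membrane-spanning collagen, had 54.1 CPM in the same library and 183 to 208 CPM in the other buffer libraries. Of the 3, 2 lay in citrate buffer replicate 1.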

How the results depend on the processing

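The edgeR fit called 81 targets, against 365 with DESeq2, 290 with limma-voom, 43 with the replicate block, 281 without citrate buffer replicates 1 and 2, and 46 to 259 when 1 library was left out (259 without citrate buffer replicate 1). Called matrix genes numbered 0, 1 with DESeq2 (*Lama5*) and 0 to 1 with 1 library left out (*Lamc1* without citrate buffer replicate 1). Of the matrix lists, 1 gene was called with DESeq2 (*Adamts9*) and 1 without citrate buffer replicates 1 and 2 (*Fbln2*). Same-numbered libraries correlated at -0.315 to 0.609, 2 of 8 best with their own number; the block called no matrix gene and turned *Nid1* to 0.0030. Other log2 fold changes turned sign with limma-voom (*Lama4* -0.060, *Lamb2* -0.040, *Col18a1* -0.028, *Col3a1* -0.43, *Col20a1* 0.060, *Col7a1* 0.059, *Col13a1* -0.050, *Timp1* 0.0099), with upper-quartile factors (*Lamb2* -0.033, *Col3a1* -0.057), with library totals (*Lamb2* -0.018, *Col3a1* -0.031), and without citrate buffer replicates 1 and 2 (*Col4a1* -0.14, *Lama4* -0.15, *Lamb2* -0.095, *Hspg2* -0.10, *Col18a1* -0.27, *Col3a1* -0.48, *Col20a1* 0.15, *Col7a1* 0.48, *Col13a1* -0.14, *Sparc* -0.040, *Timp1* 0.37). Leaving out 1 library gave -0.041 to 0.33 for *Col4a1*, -0.089 to 0.34 for *Lama4*, -0.15 to 0.082 for *Nid1*, -0.011 to 0.68 for *Col18a1*, -0.29 to 0.52 for *Col3a1*, -0.41 to 0.11 for *Col20a1* and -0.080 to 0.35 for *Col13a1*. The cause was not tested. Without its most abundant gene the basement membrane sum was 1661 CPM after buffer and 1905 CPM after iron, the fibrillar sum 28.5 CPM after iron, the other matrix sum 1187 and 1660 CPM, and the sum of all 62 genes 4737 CPM after iron. Upper-quartile factors and library totals moved the median of all targets to -0.12 and -0.11. *Col18a1*, *Col11a2*, *Col6a3* and *Timp1* gave no value under the filter at a mean of 5 CPM. Depth limits the 28 untested genes.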
